A study of Mus musculus with 18 samples.

Results

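The genes described here are the amino acid transporter families of the mouse mammary gland, taken as every gene of the solute carrier families Slc1, Slc3, Slc6, Slc7, Slc36, Slc38 and Slc43 that had 20 or more unique molecular identifiers (UMIs, counted RNA molecules) summed over the 10 FVB/NJ libraries of the series. Of 31053 genes listed in the files, 67 had a symbol of these families and 51 reached that count. The members numbered 6 of 7 in Slc1, 2 of 2 in Slc3, 14 of 22 in Slc6, 12 of 16 in Slc7, 4 of 6 in Slc36, 10 of 11 in Slc38 and 3 of 3 in Slc43. The lowest member had 23 UMIs, and the highest gene left out had 9. Not every member carries amino acids. Slc6a8 carries creatine, Slc6a6 taurine, Slc6a2, Slc6a3 and Slc6a4 monoamine transmitters, and Slc43a3 nucleobases. Slc7a6os and Slc36a3os are opposite-strand genes whose symbols match the families but which are not carriers, and for overlapping neighbours the assignment of reads is uncertain.

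Single cells of mammary glands were captured on the 10x Genomics Chromium platform with 3' libraries, after sorting for epithelium as lineage-negative (CD31-, CD45-, Ter119-) CD24+ cells. The FVB/NJ libraries came from virgin adults of 10 weeks (libraries A10, P7 and D12), glands at 12.5 days of pregnancy (H and G), glands at 18.5 days of pregnancy (F4 and B4), glands at 10 days of lactation (F11 and D6) and 1 post-involution gland collection labelled as 3 weeks post birth. The study's own text dates this collection from weaning instead. It gives 10 days of lactation in its methods and other lengths elsewhere, so the stages and ages printed here are those of the labels. The labels name no transgene or treatment for these mice, each library pooled several of them, and adults were not staged for the estrus cycle. The other 8 libraries of the series were single and enter no test here. They were C57BL/6 except for 1 adult of the SWISS strain: mammary rudiment and nearby skin of Lgr5-GFP embryos at E18.5, glands of postnatal day 5, glands before puberty at 2.5 weeks, terminal end buds and ducts of Ecadherin-GFP mice at 5 weeks, and adults of 10 weeks for both strains.

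Amino acids reach the secretory cell through carriers in its basolateral membrane, because milk protein synthesis draws on plasma amino acids. Exchangers of the Slc7 family pair with the heavy chain Slc3a2 to reach the membrane and swap one amino acid for another, carriers of the Slc1, Slc6 and Slc38 families use sodium gradients to concentrate glutamate, glutamine and small neutral amino acids, and a few members, such as Slc38a9 and Slc36a1, act at the lysosome, where amino acid supply is sensed by the kinase complex mTORC1. When amino acids run short, the transcription factor ATF4 is translated and binds CCAAT/enhancer-ATF response elements, among them elements at several transporter genes. The prolactin-activated factor STAT5 binds palindromic sites at many milk genes.

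Promoter sequence is shown for these 2 factors because the genes that carry such letters are among those whose values are given in what follows. RefSeq promoter windows (build GRCm38.p6, 300 bases around each annotated start) were at hand for 37 of the 51 members. The response element letters TGATGNAA, searched on both strands, occurred in 3 of the 37 genes (8.11%), beside 4.51% of all 27025 genes with such windows. In the lines that follow, the capitals mark the element, and each sequence reads 5′ to 3′ on the strand of its gene, all 3 genes lying on the minus strand.
Slc7a11, chr3:50443662-50443689: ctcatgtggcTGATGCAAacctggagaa
Slc7a11, chr3:50443643-50443670: cctggagaatTTGCATCAtcatgcagcc
Slc1a4, chr11:20332700-20332727: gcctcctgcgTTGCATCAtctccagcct
Slc7a7, chr14:54418068-54418095: cgcttgggctTGATGAAAggttcactgg
The cystine and glutamate exchanger Slc7a11 held the element at bases -66 and -47 from its start, on opposite strands. Slc7a7 held a second one at base -1.

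The STAT5 letters TTCNNNGAA, which read the same on both strands, occurred in 4 of the 37 genes (10.8%), beside 9.55% of all genes with windows. The 4 genes were Slc7a11, Slc7a1, Slc38a9 and Slc1a3, and the windows of the exchanger Slc7a11 and the glutamate carrier Slc1a3 are shown, both on the minus strand.
Slc7a11, chr3:50443778-50443806: gtatgctttgTTCTGGGAAatgctttgga
Slc1a3, chr15:8710885-8710913: ttcaggatccTTCCAAGAAatttcagtta
These matches describe letters in a window of 300 bases and not binding. Slc7a11 and Slc1a3 are among the genes called higher in lactation in what follows, and Slc7a1 and Slc38a9, whose windows are not shown, are not. The share of members with the STAT5 letters was near that of all genes.

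After the filters of the study, 83020 of 96685 barcodes remained in the 10 libraries, and 74474 of them (89.7%) were assigned to 1 of 3 epithelial classes by marker lists: basal (myoepithelial), LP/alveolar (luminal progenitors of the virgin gland and their secretory alveolar descendants) and ML (mature luminal, hormone-sensing). Library totals lay between 9920346 and 93234616 UMIs, and a class of a library held 154 to 8115 cells. A class is a range of marker levels, and 3.98% of the assigned cells lay within 0.1 log10 units of a gate. Levels are UMIs summed over a library's cells of a class, divided by that sum's UMIs outside 8 milk genes (caseins, Wap, Lalba and Glycam1), times 1000000 and after TMM scaling (scaled CPM). Leaving out the milk genes matters because they took 77.6% and 78.5% of the LP/alveolar UMIs in the lactation libraries F11 and D6. The adult library P7 stood apart from A10 and D12 over all genes and had shorter barcodes, and library pairs shared at most 2.02% of their barcodes. Basal cells of F11 had a median of 188.5 LP/alveolar marker UMIs per 10000, against 28.6 in D6. Together the 51 members held 0.0732% of all UMIs.

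The first comparison asked which lineage carried each transporter in the resting adult gland. Of 31 members abundant enough to be tested, 25 were called higher in 1 class, and none in more than 1, by edgeR's quasi-likelihood test with the library as a block and a Benjamini-Hochberg adjusted p under 0.05. Of all genes tested, 55.1% were called higher in at least 1 class and 4.33% in more than 1. Basal cells had 14 members called higher and 7 lower than the mean of the other classes, when 24.2% of all genes tested were called higher and 21.5% lower (45.7% in all). Those higher were Slc1a3, Slc1a5, Slc36a4, Slc43a1, Slc43a3, Slc6a15, Slc6a6, Slc6a8, Slc6a9, Slc7a1, Slc7a11, Slc7a5, Slc7a6 and Slc7a6os. The median member differed by 0.66 on the log2 scale in basal cells, beside 0.01 over all genes. Fibroblast markers were also higher in the basal sums, at 219, 296 and 173 CPM before TMM scaling in A10, P7 and D12, against 18.4, 24.1 and 14.0 in LP/alveolar sums, while ML sums held 96.6, 400 and 29.3. Immune markers were higher in the basal sums of P7 and D12 (37.7 and 73.2) than in their LP/alveolar sums (4.61 and 4.79). In A10 they were not (4.50 and 5.1). The part of these other cell types in the basal calls was not tested.

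Among the basal members, the glial-type glutamate carrier Slc1a3 (ENSMUSG00000005360) was measured at 38.3 scaled CPM in A10, 10.0 in P7 and 15.1 in D12. LP/alveolar cells of the same libraries held 1.51, 0 and 1.30. Every basal value exceeded every luminal one, and the log2 difference was 4.60 ± 0.32 (SE, edgeR adjusted p = 3.29e-06). The large neutral amino acid carrier Slc43a1 stood at 3.15, 3.77 and 3.82 in basal cells (log2 difference 4.03 ± 0.43). It did not exceed 0.453 in any adult luminal sum. The taurine carrier Slc6a6 was measured at 126, 150 and 107 in basal cells and at 10.2 to 37.4 in luminal cells (log2 difference 2.77 ± 0.20).

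Slc1a5, a glutamine and small neutral amino acid exchanger, gave 67.0, 126 and 79.9 in basal cells of A10, P7 and D12 and at most 24.0 in luminal cells (log2 difference 2.33 ± 0.18). Slc7a5 (ENSMUSG00000040010), the light chain that exchanges large neutral and branched-chain amino acids, was at 91.0, 38.3 and 45.7 in basal cells (log2 difference 2.08 ± 0.22). Its groups overlapped, because LP/alveolar cells of A10 reached 38.4. The nucleobase carrier Slc43a3 and the neutral amino acid carrier Slc6a15 were also basal, with log2 differences of 3.47 ± 0.40 and 3.03 ± 0.33.

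LP/alveolar cells of the adult had 4 members called higher, Slc1a1, Slc43a2, Slc1a4 and Slc3a2, and 8 lower, when 13.8% of all genes were called higher and 14.4% lower (28.2% in all). The glutamate and cysteine carrier Slc1a1 (ENSMUSG00000024935) had the largest lineage difference of any member in these 3 comparisons, 5.58 ± 0.44 on the log2 scale (edgeR adjusted p = 5.95e-05). It was measured at 22 scaled CPM in A10, 111 in P7 and 19.4 in D12, and at no more than 1.43 in any basal or ML sum of these libraries. P7 was far above the others, and without P7 the log2 difference was 4.98.

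Slc43a2, a facilitative carrier of large neutral amino acids, was at 23.7, 17.6 and 8.75 in LP/alveolar cells, at 3.45 to 8.04 in basal cells and at 0 to 1.51 in ML cells. The 2 large neutral carriers of the Slc43 family thus differed in lineage: Slc43a1 was called higher in basal and lower in LP/alveolar cells (log2 difference -3.27 ± 0.69), and Slc43a2 was called higher in LP/alveolar cells (log2 difference 2.67 ± 0.42). The heavy chain Slc3a2 was detected in every class and was higher in LP/alveolar cells by a smaller step, 1.24 ± 0.13. The serine and alanine exchanger Slc1a4 was higher there by 2.26 ± 0.40.

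ML cells had 7 members called higher and 12 lower, when 21.5% of all genes were called higher and 21.8% lower (43.3% in all). The 7 were Slc36a1, Slc38a1, Slc38a10, Slc38a6, Slc38a9, Slc7a2 and Slc7a4. Erythroid markers were also higher in the ML sums, at 33.8, 25.2 and 72.7 CPM before TMM scaling in A10, P7 and D12. Basal and LP/alveolar sums of these libraries held at most 4.42. The part of erythroid RNA in the ML calls was not tested. The cationic amino acid carrier Slc7a2 (ENSMUSG00000031596) was measured at 151, 110 and 156 scaled CPM in ML cells of A10, P7 and D12, against 15.7 to 27.2 in basal and 7.90 to 10.8 in LP/alveolar cells. The classes did not overlap (log2 difference 3.31 ± 0.14, edgeR adjusted p = 1.87e-07). The other cationic carrier of wide use, Slc7a1, was basal-high and ML-low, with log2 differences of 1.0 ± 0.30 and -0.91 ± 0.31, and both calls were lost without P7, as was the basal call of Slc7a11.

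Slc38a1, a sodium-coupled glutamine and alanine carrier, was at 79.9, 48.3 and 62.9 in ML cells (log2 difference 2.38 ± 0.33). Its close relative Slc38a2 gave no call in any class: its levels were 425, 101 and 275 in LP/alveolar cells, 500, 167 and 220 in basal cells and 473, 94.6 and 221 in ML cells of A10, P7 and D12. The lysosomal members Slc38a9 and Slc36a1 were higher in ML cells by 1.08 ± 0.25 and 1.21 ± 0.35. Slc7a4, a relative of the cationic carriers, was higher by 2.43 ± 0.21. Without A10 the calls numbered 12 instead of 21 in basal cells, 5 instead of 12 in LP/alveolar cells and 12 instead of 19 in ML cells.

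**Figure D1:**
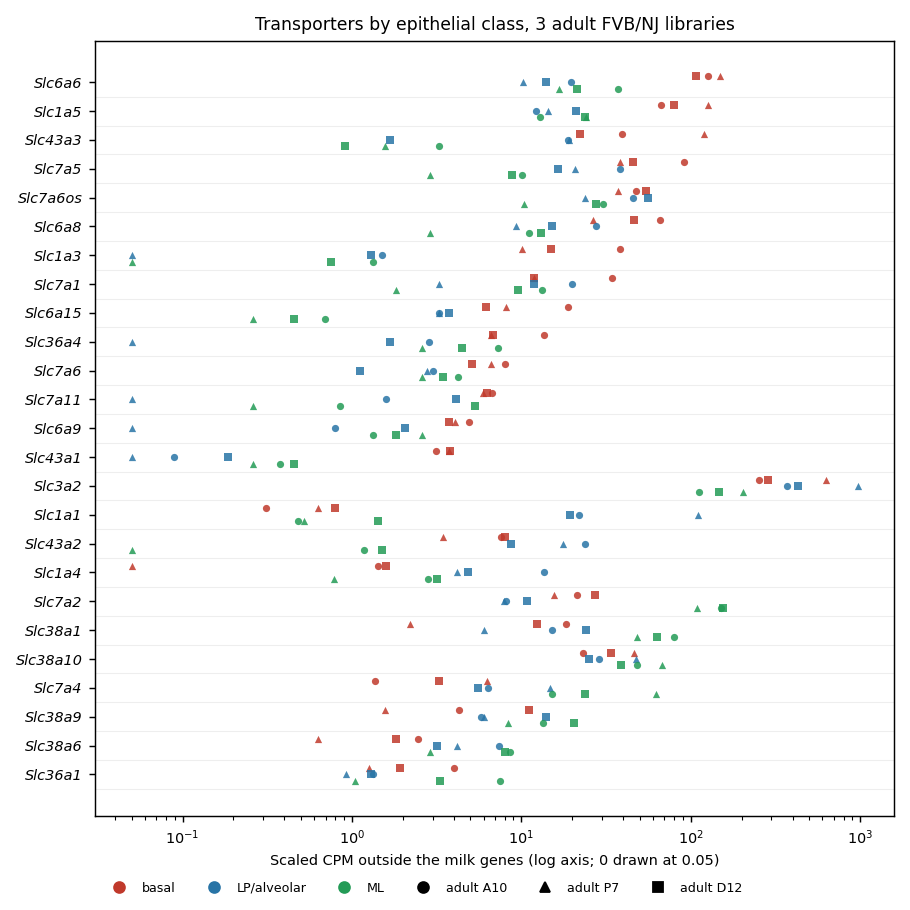
Level in scaled CPM (log axis, 0 drawn at 0.05) of the 25 members called higher in 1 class of the adult gland, in each class of the 3 adult FVB/NJ libraries; colour gives the class and marker shape the library. Slc1a3 and Slc6a6 sit highest in basal cells, Slc1a1 in LP/alveolar cells and Slc7a2 in ML cells, in all 3 libraries.

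The next comparisons followed LP/alveolar cells from the virgin gland to milk secretion, to ask when each transporter changed. From the adult to 12.5 days of pregnancy, 7 of 33 tested members were called, 5 higher and 2 lower, when 5.49% of all genes were called higher and 6.70% lower (12.2% in all). Their median log2 change was 0.08, beside 0.01 over all genes. Every called member had libraries that did not overlap between the stages, and so had uncalled members such as Slc7a1 and Slc3a2. Non-overlap was not counted over all genes.

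The broad neutral and cationic carrier Slc6a14 was measured at 5.24 and 4.82 scaled CPM in H and G, against 1.06, 0.929 and 0.186 in A10, P7 and D12 (log2 change 2.71 ± 0.51, edgeR adjusted p = 0.0127). Slc38a3, a glutamine carrier, rose from at most 0.887 to 2.79 and 2.86 (log2 change 2.38 ± 0.57). Slc7a5 rose from 38.4, 20.9 and 16.4 to 71.5 and 77.0 (log2 change 1.52 ± 0.37, edgeR adjusted p = 0.0277). Both pregnancy libraries were above all adults for these genes. Slc43a2 and the cationic and neutral amino acid exchanger Slc7a6 rose by 1.47 ± 0.37 and 1.41 ± 0.40.

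The members that fell were Slc1a1 and Slc7a2. Slc7a2 was at 8.07, 7.90 and 10.8 in the adult libraries and at 1.77 and 1.92 in H and G, a log2 change of -2.30 ± 0.40. Slc1a1 was at 7.42 and 8.57 in H and G and at 19.4 or more in the adults, a log2 change of -2.68 ± 0.73 that was -1.39 without P7. The heavy chain Slc3a2 gave 371, 975 and 430 in the adults and 178 and 193 at this stage, but did not pass the test (log2 change -1.72 ± 0.57, edgeR adjusted p = 0.0803). The number of calls rested on few libraries: it was 0 without H or without G, 2 without F4 or without B4, and 4 without F11 or without D6.

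From the 12.5-day to the 18.5-day libraries of pregnancy no member of 33 was called by edgeR's quasi-likelihood test, when 0.978% of all genes were called higher and 0.183% lower (1.16% in all). At an unadjusted p under 0.05 there were 11, when 17.2% of all genes passed that limit. DESeq2 called 7 higher and 1 lower of the 31 to which it gave an adjusted p, when it called 4.33% of all genes higher and 2.48% lower (6.81% in all). The median member change was 0.40 on the log2 scale, beside 0.02 over all genes. The exchanger Slc7a7, which exports cationic amino acids, gave 5.15 and 5.52 in H and G and 17.7 and 25.8 in F4 and B4 (log2 change 1.99 ± 0.45, edgeR adjusted p = 0.0669). Slc1a4 gave 7.21 and 6.03, then 23.9 and 27.0 (log2 change 1.91 ± 0.47). Slc38a1 gave 20.4 and 19.0, then 5.99 and 4.27 (log2 change -1.97 ± 0.48). Libraries of the stages did not overlap for any of the 11, nor for members with an unadjusted p above 0.05, such as Slc38a9 (log2 change -0.14 ± 0.42). Non-overlap was not counted over all genes. Without P7 there were 7 calls, without D12 there were 2 and without A10 there was 1. The share of all genes called in those fits was not counted.

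From 18.5 days of pregnancy to lactation, 1 of 33 members was called, when 2.55% of all genes were called higher and 1.01% lower (3.56% in all). That member was Slc7a2, measured at 4.61 and 7.71 in F4 and B4 and at 22.2 and 44.3 in F11 and D6 (log2 change 2.53 ± 0.41, edgeR adjusted p = 0.0112). Slc7a2 had therefore been called lower in mid-pregnancy and was called higher at the last step. Slc1a3 gave 8.85 and 21.1, then 40.9 and 68.1, which missed the threshold (log2 change 1.95 ± 0.53, edgeR adjusted p = 0.0795). Slc43a2 gave 60.1 and 77.8, then 29.9 and 27.0 (log2 change -1.19 ± 0.41, edgeR adjusted p = 0.167). DESeq2 called 3 members higher and 1 lower, when it called 5.02% of all genes higher and 2.76% lower (7.78% in all). For the fits without a library that follow, the share of all genes called was not counted. The edgeR count was 7 without P7, 2 without D12 and 0 without F4, B4 or D6.

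**Figure D2:**
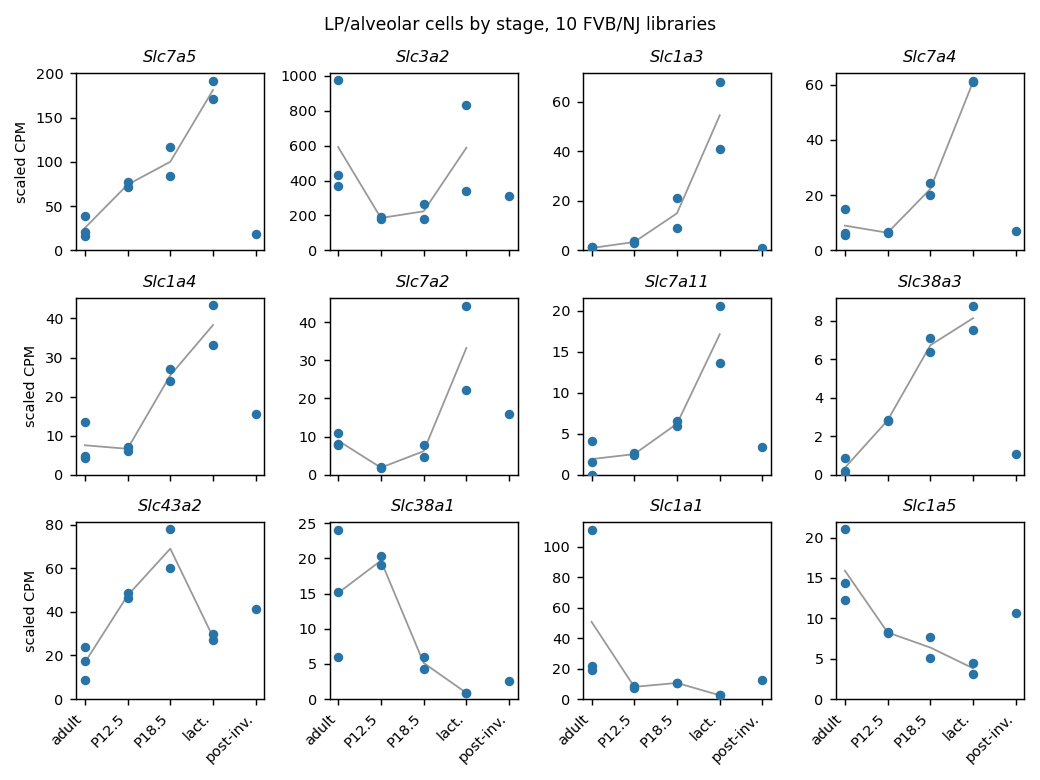
Level in scaled CPM of 12 members in LP/alveolar cells of each FVB/NJ library at 5 stages; points are libraries, and the grey line joins the means of the 4 replicated stages. Slc7a5 climbs from 25.2 in the adult to 181 in lactation, while Slc43a2 is highest at 18.5 days of pregnancy and Slc7a2 lowest at 12.5 days.

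Over the whole course, the lactating gland was compared with the virgin adult. In LP/alveolar cells 17 of 33 members were called, 13 higher and 4 lower, when 16.2% of all genes were called higher and 14.2% lower (30.4% in all). The median member changed by 0.79 on the log2 scale, beside -0.05 over all genes. The 13 that rose included 7 of the Slc7 family. Each of the 17 had adult and lactation libraries that did not overlap, and so had uncalled members such as Slc43a2 and Slc6a6. Non-overlap was not counted over all genes.

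Markers of other cell types were higher in the lactation LP/alveolar sums of F11 and D6 as well (CPM before TMM scaling). The 3 adipocyte markers together stood at 280 and 259, against at most 0.646 in the adult and pregnancy sums, where Adipoq was at 0. The 6 endothelial markers stood at 737 and 593, against 6.63 to 19.2, and most of this was Fabp4 (712 and 562), which adipocytes also make. Erythroid markers stood at 143 and 103, against at most 4.42, and immune markers at 38.1 and 77.4, against 4.61 to 14.0. Fibroblast markers stood at 24.4 and 56, against 8.38 to 24.1, and mural markers at 26.9 and 19.7, against 12.8 to 30.4. If every adipocyte or endothelial marker UMI came with the other RNA of the cells led by that list in the same library, such cells would make up 0.377% and 0.500% (adipocyte) or 1.73% and 1.25% (endothelial) of these sums. Under that assumption adipocyte-led RNA would give 5.02% and 3.90% of the Slc1a3 level in F11 and D6, and neither list would give more than 4.28% of the level of any other of the 13 members. The assumption itself was not tested. No such share was worked out for the immune, erythroid, fibroblast or mural markers, so their part in the levels of the 13 members was not tested and has no limit here.

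Slc7a5 was measured at 38.4, 20.9 and 16.4 scaled CPM in A10, P7 and D12 and at 171 and 192 in F11 and D6. The stage means were 25.2 ± 11.6 (SD, n = 3) and 181 ± 14.3 (SD, n = 2), and the log2 change was 2.86 ± 0.37 (edgeR adjusted p = 0.000748). Its heavy chain Slc3a2 (ENSMUSG00000010095) was not called: 371, 975 and 430 in the adults against 833 and 342 in lactation. The libraries overlapped, and the log2 change of 0.01 ± 0.54 has a wide SE. From 18.5 days of pregnancy to lactation Slc3a2 changed by 1.5 ± 0.60 and Slc7a5 by 0.95 ± 0.40 on the log2 scale. Neither was called at that step (edgeR adjusted p = 0.24 and 0.27). Of the other light chains that pair with Slc3a2, Slc7a11 rose by 3.03 ± 0.61, Slc7a8 by 2.91 ± 0.61, Slc7a6 by 2.13 ± 0.41 and Slc7a7 by 1.61 ± 0.41. Slc7a11 gave 1.60, 0 and 4.10 in the adults and 20.6 and 13.7 in lactation.

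Slc1a3 had the largest rise, from 1.51, 0 and 1.30 in A10, P7 and D12 to 40.9 and 68.1 in F11 and D6, a log2 change of 5.55 ± 0.58 (edgeR adjusted p = 0.000275). The glutamate carrier Slc1a1 went the opposite way: it stood at 22, 111 and 19.4 in the adults and at 2.50 and 2.40 in lactation, a log2 change of -4.33 ± 0.84 (edgeR adjusted p = 0.00483), or -3.04 without P7. The small neutral amino acid exchangers were split as well. Slc1a4 rose from 13.6, 4.18 and 4.84 to 33.2 and 43.4 (log2 change 2.29 ± 0.43), whereas Slc1a5 fell from 12.2, 14.4 and 21.0 to 4.47 and 3.14 (log2 change -2.05 ± 0.38).

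Among the glutamine carriers of the Slc38 family, Slc38a3 rose and Slc38a1 fell. Slc38a3 was at 0.887, 0 and 0.186 in the adults and at 7.51 and 8.77 in lactation (log2 change 3.97 ± 0.56). Slc38a1 was at 15.2, 6.04 and 24.0 in the adults and at 0.894 and 0.831 in lactation (log2 change -4.14 ± 0.59). Slc38a2 (ENSMUSG00000022462), whose translation and transcription respond to amino acid starvation in many cells, gave 425, 101 and 275 against 208 and 344, a log2 change of 0.08 ± 0.50. Slc38a6 rose by 1.31 ± 0.36 and the lysosomal sensor Slc38a9 gave -0.17 ± 0.41.

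Of the cationic carriers, Slc7a2 rose by 1.92 ± 0.36. Slc7a1 gave 20.1, 3.25 and 11.9 in the adults and 16.1 and 20.3 in lactation, with a log2 change of 0.59 ± 0.49. Their relative Slc7a4 went from 6.39, 14.9 and 5.59 to 61.3 and 60.7 (log2 change 2.89 ± 0.40). In the Slc6 family, Slc6a14 rose by 1.91 ± 0.55 and Slc6a15 fell by 2.42 ± 0.57 on the log2 scale. The call of Slc6a14 was lost in 6 of 14 alternatives, among them those without H, G, B4, F11 or D6, whereas Slc6a15 kept its call in all 14. The taurine carrier Slc6a6 gave 8.40 and 9.51 in lactation against 19.8, 10.2 and 14.0, which did not pass the test (log2 change -0.71 ± 0.31, edgeR adjusted p = 0.112). The creatine carrier Slc6a8 and the glycine carrier Slc6a9 gave 0.78 ± 0.39 and 1.77 ± 0.63, also uncalled. The lysosomal proton-coupled carrier Slc36a1 rose by 1.78 ± 0.39. Without TMM scaling the split was 12 higher and 5 lower, and without D6 the calls numbered 10.

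**Figure D3:**
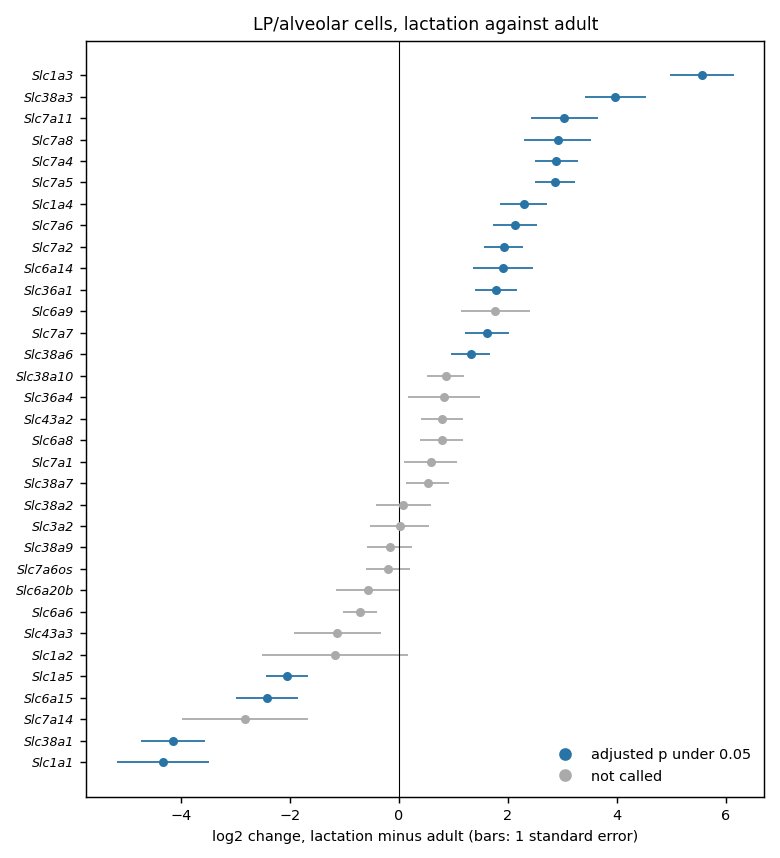
Log2 change from adult to lactation in LP/alveolar cells for the 33 tested members, with bars of 1 SE; blue points have an adjusted p under 0.05 in edgeR's quasi-likelihood test. The changes run from 5.55 for Slc1a3 to -4.33 for Slc1a1, and Slc3a2 and Slc38a2 lie at 0.01 and 0.08.

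The same stages were then compared in the other classes, to ask whether the changes belonged to the secretory cells. In basal cells no member of 34 was called by edgeR's quasi-likelihood test, when 1.83% of all genes were called higher and 0.639% lower (2.47% in all). There were 6 members at an unadjusted p under 0.05, when 16.7% of all genes passed that limit. DESeq2 called 0 higher and 2 lower, when it called 3.60% of all genes higher and 1.72% lower (5.32% in all). The median was -0.18 on the log2 scale, beside -0.14 over all genes. Slc7a5 was at 91.0, 38.3 and 45.7 in adult basal cells and at 25.7 and 11.1 in lactation (log2 change -1.67 ± 0.49, edgeR adjusted p = 0.113). Basal Slc1a3 gave 38.3, 10.0 and 15.1, then 10.3 and 18.8, with overlapping libraries. Lactation basal sums were small, 834 cells in F11 and 397 in D6, and without P7 there was 1 call. The basal sums of F11 and D6 also held 635 and 514 CPM (before TMM scaling) of endothelial markers, against 9.32 to 28.1 in the adults, and 178 and 70.3 of adipocyte markers, against at most 1.75. Mural markers stood at 97.1 and 159 (adults 12.9 to 17.3), erythroid markers at 129 and 37.0 (adults at most 3.70), immune markers at 64.1 and 208 (adults 4.50 to 73.2) and fibroblast markers at 390 and 221 (adults 173 to 296). Their part in the basal values was not tested.

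The difference between the classes was tested itself, as the change from adult to lactation in LP/alveolar cells minus that in basal cells. Of 33 members 6 were called, all more positive in LP/alveolar cells, when 5.61% of all genes were called more positive and 6.37% more negative. The median member difference was 0.58, beside -0.01 over all genes. The log2 differences were 6.21 ± 0.52 for Slc1a3 (edgeR adjusted p = 0.000445), 4.45 ± 0.41 for Slc7a5 (edgeR adjusted p = 0.000594), 3.24 ± 0.40 for Slc7a2 (edgeR adjusted p = 0.00171) and 2.40 ± 0.61 for Slc7a6 (edgeR adjusted p = 0.0328). Slc7a5 was therefore basal-high in the adult and alveolar-high in lactation, where every alveolar library (171 and 192) exceeded every basal one (25.7 and 11.1).

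The fifth, Slc38a3, had 0 UMIs in the basal cells of both lactation libraries, so its fitted value of 9.34 ± 2.18 depends on the prior count. Against a limit of 3 UMIs over both basal sums (1.60 scaled CPM), its alveolar level of 8.14 was at least 5.09-fold higher. The sixth, Slc38a10, passed with 1.83 ± 0.36 although neither class was called alone. It lies outside the rule for named genes and was added after its value was seen. Apart from Slc1a3, Slc7a5, Slc7a2, Slc7a6 and Slc38a3, no member called in LP/alveolar cells was called in this test of the difference. Slc1a4 and Slc1a5 went the same way in basal cells, by 2.01 ± 0.87 and -1.47 ± 0.43 on the log2 scale (both uncalled). Their differences between the classes were 0.21 ± 0.90 and -0.79 ± 0.51, also uncalled. Without D6 3 members were called. Slc38a3 lost its call without A10, F11 or D6, and Slc7a6 lost its call in 6 of 10 alternatives, while Slc1a3, Slc7a5 and Slc7a2 kept theirs in all 10.

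If all milk gene UMIs of a basal sum were free alveolar RNA, that RNA would make up 17.0% of the non-milk UMIs in F11 and 2.21% in D6. Such a share would give at most 21.8 scaled CPM of Slc7a5 in F11 basal cells and 2.73 in D6. The measured basal levels of Slc7a5 were 25.7 and 11.1.

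In ML cells 1 of 20 tested members was called between adult and lactation, when 2.63% of all genes were called higher and 1.24% lower (3.86% in all). Slc7a8, a large neutral amino acid exchanger, gave 0.374, 0.261 and 0.603 in the adults and 6.55 and 8.19 in lactation (log2 change 4.17 ± 0.81, edgeR adjusted p = 0.0124). The lactation values rest on 4 and 3 UMIs, and the call was lost without F11 or without D6, while without P7 there were 3 calls. ML cells of F11 also carried a median of 103 alveolar marker UMIs per 10000, beside 104 of their own markers. Endothelial markers stood at 334 and 318 CPM before TMM scaling in the ML sums of F11 and D6, against 14.2 to 23.6 in the adults, and adipocyte markers at 115 and 82.1, against at most 0.582. Immune markers stood at 37.8 and 20.5 (adults 1.48 to 3.70), mural markers at 50.3 and 37.6 (adults 20.6 to 34.5), erythroid markers at 128 and 41.1 (adults 25.2 to 72.7) and fibroblast markers at 46.7 and 137 (adults 29.3 to 400). Their part in the ML values was not tested. The ML-high carrier Slc7a2 gave 151, 110 and 156 in the adults and 138 and 123 in lactation, with overlapping libraries.

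**Figure D4:**
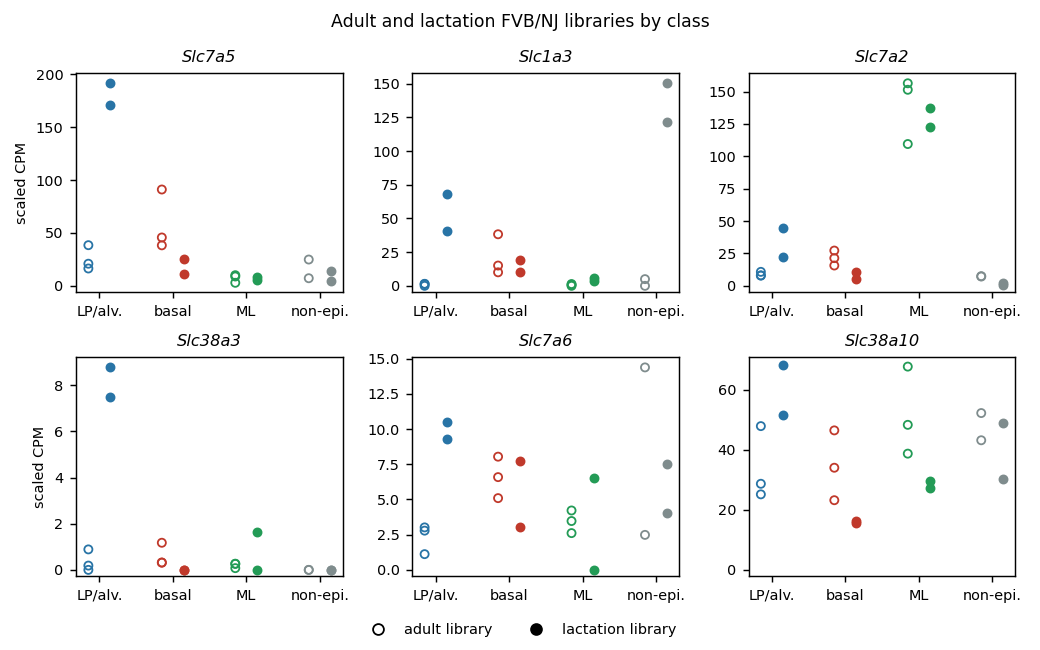
Level in scaled CPM of Slc7a5, Slc1a3, Slc7a2, Slc38a3, Slc7a6 and Slc38a10 in 4 cell classes; open points are adult libraries and filled points lactation libraries, and 2 adult libraries had enough non-epithelial cells to be shown. For Slc7a5 the filled points are at 171 and 192 in LP/alveolar cells and at 25.7 and 11.1 in basal cells, and Slc1a3 is also high in the non-epithelial cells of lactation.

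Slc1a3 needs its non-epithelial levels beside it. The cells that passed no epithelial gate but a gate for other cell types numbered 436 in F11 and 1808 in D6, against 13 to 133 in the other FVB/NJ libraries, and held 122 and 150 scaled CPM of Slc1a3. Within them, the cells led by the adipocyte markers Adipoq, Plin1 and Cfd (87 in F11 and 363 in D6) held 412 and 381 CPM of Slc1a3 before TMM scaling. The same cells held 262 and 267 of the proton-coupled carrier Slc36a2 and 133 and 132 of the neutral amino acid carrier Slc7a10. In those cells Slc1a3 had 1.57 and 1.43 UMIs for each UMI of Slc36a2. In LP/alveolar cells the ratio was 76.3 and 56.8, from 229 and 738 UMIs of Slc1a3 and 3 and 13 of Slc36a2. The alveolar ratios rest on those few Slc36a2 UMIs, and the source of the alveolar Slc1a3 UMIs was not tested.

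Endothelial-led cells of lactation (247 in F11 and 731 in D6) held Slc43a3 at 219 and 158 CPM before TMM scaling, each value above those of the adipocyte-led cells (0 and 3.23). Slc6a6 was measured there at 56.2 and 198. Adipocyte-led cells also held Slc1a5 at 204 and 189. These are values of 2 libraries with no test. Adults had too few such cells for a comparison.

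Hormone-sensing ML cells were rare in pregnancy (154 to 323 cells in a library). Comparisons of ML cells in pregnancy were not among those planned, so no test of them is reported. Slc6a9, Slc6a6 and Slc7a7 are given as values. No rule picked these genes for ML cells of pregnancy, and they were chosen with their values seen. How far they stand from the adults therefore partly reflects that choice. Slc6a9, the glycine carrier, gave 21.9 and 26.1 scaled CPM in H and G and 14.7 and 26.0 in F4 and B4, from 16 to 34 UMIs in a library, against 1.33 to 2.61 in the adults. LP/alveolar cells of the same pregnancies held 1.60 to 2.03 of it. Erythroid markers were higher in the ML sums of pregnancy too, at 297 and 299 CPM before TMM scaling in H and G and 78.9 and 176 in F4 and B4, against 25.2 to 72.7 in the adults. These were UMIs of the alpha globin genes Hba-a1 and Hba-a2, and the beta globin genes Hbb-bs and Hbb-bt were at 0 in all 4 pregnancy libraries. In erythroid-led cells of the prepuberty library, where Slc6a9 was also detected, Hbb-bs had 362685 UMIs and Hba-a1 132311. That library is single and of another strain and age, and the source of the alpha globin UMIs in ML sums was not tested. Slc6a6 stood at 134 in both H and G, at 31.5 and 32.1 in F4 and B4, and at 16.7 to 37.4 in the adults. Slc7a7 gave 42.5 and 26.1, then 71.5 and 77.1, beside 6.86 to 22.2 in the adults. For Slc6a9 and Slc7a7 no pregnancy library overlapped an adult one, and non-overlap was not counted over all genes. Immune markers in these ML sums stood at 25.9 and 36.4 CPM before TMM scaling in H and G and at 139 and 40.1 in F4 and B4, against 1.48 to 3.70 in the adults, and mural markers at 64.8 to 81.2, against 20.6 to 34.5. Endothelial markers ranged from 13.6 to 24.8 (adults 14.2 to 23.6) and fibroblast markers from 7.83 to 22 (adults 29.3 to 400), and adipocyte markers were at 0. The part of these other cell types in the ML values of pregnancy was not tested.

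The post-involution library is 1 sample, so its values carry exact Poisson intervals of 95% that cover counting error only. In its LP/alveolar cells Slc7a5 was at 18.5 scaled CPM (16.2 to 21.1), within the adult range of 16.4 to 38.4. Slc1a3 was at 0.918 (0.458 to 1.64) and Slc7a4 at 6.84 (5.44 to 8.49), both also within the adult range and far below lactation. Slc43a2 at 41.4 (37.8 to 45.2) was above every adult value and Slc38a1 at 2.50 (1.69 to 3.57) below every adult value. In ML cells Slc7a2 reached 278 (271 to 285), above the 110 to 156 of the adults. Whether these differences exceed the spread between glands cannot be told from 1 library. The study states that adult and post-involution samples of this strain were processed at the same time. It names no pregnancy or lactation sample with them and does not say which adult library is meant. Likeness to the adult and distance from lactation therefore cannot be told apart from processing.

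Genes of amino acid use were read from 4 lists. Of 20 genes of the ATF4 response and serine synthesis, 9 were called higher and 1 lower in LP/alveolar cells of lactation against adult, when 16.2% of all genes were called higher and 14.2% lower. Their median log2 change was 0.90, beside -0.05 over all genes. They included the serine synthesis enzyme Phgdh (2.71 ± 0.35), the asparagine synthetase Asns (2.24 ± 0.40), the proline enzyme Pycr1 (2.41 ± 0.41), the ATF4 target Trib3 (2.97 ± 0.41) and the glutathione-degrading enzyme Chac1 (3.06 ± 0.66), and the stress factor Atf3 was the one lower (-1.39 ± 0.40). At 12.5 days of pregnancy 4 were higher and 2 lower, when 5.49% of all genes were called higher and 6.70% lower. Phgdh had already risen by 3.77 ± 0.36 and its partner Psat1 by 2.25 ± 0.54, and Nupr1 and Stc2 were lower by -3.13 ± 0.47 and -2.55 ± 0.56.

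Of 19 cytosolic aminoacyl-tRNA synthetases, which load amino acids on tRNA, 4 were higher in lactation (Aars, Iars, Lars and Yars, by 1.04 to 1.69) and none lower, with a median of 0.02, beside the same 16.2% of all genes called higher and a median of -0.05 over all genes. The share called was near that of all genes. Of 18 genes of amino acid sensing by mTORC1, 6 were higher and none lower, with a median of 0.75 against this background. The Rag GTPase Rragd rose by 3.50 ± 0.78, and its lysosomal anchor subunits Lamtor1, Lamtor2 and Lamtor5 rose by 1.66 ± 0.33, 1.89 ± 0.53 and 1.57 ± 0.33. Of 10 genes of branched-chain amino acid breakdown 6 were higher and none lower, with a median of 1.36, among them Ivd of leucine breakdown (2.66 ± 0.26) and the dehydrogenase phosphatase Ppm1k (2.49 ± 0.59). The transaminase Bcat2 rose by 1.42 ± 0.37. No gene of the 4 lists was called in basal cells between adult and lactation, when 2.47% of all genes were called. In ML cells 1 was called, lower, when 3.86% of all genes were called (1.24% lower). With so few genes called in these classes, the counts do not set the lists apart.

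The members that entered no test close the account. There were 13 that passed the abundance filter of no comparison, with 23 to 872 UMIs over the 10 libraries and at most 5.13 scaled CPM in any epithelial sum: Slc36a2, Slc7a10, Slc7a3, Slc6a20a, Slc3a1, Slc36a3os, Slc6a19, Slc6a13, Slc6a18, Slc1a6, Slc38a11, Slc6a4 and Slc6a3. Slc36a2 (872 UMIs) and Slc7a10 (401) had more UMIs than some tested members, and were the carriers described in adipocyte-led cells. The other 11 had 23 to 105 UMIs, with the monoamine carriers Slc6a3 (23) and Slc6a4 (29) at the low end. Differences of these 13 between epithelial classes or stages were not tested. The heavy chain Slc3a1, the partner of the cystine carrier of kidney, was one of them, while Slc3a2 held 93592 of the 93666 UMIs of its family.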

How the data were processed

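The authors deposited raw UMI counts per gene and cell for each library, made with Cell Ranger 3.0.2 (16 matrices) or 3.1.0 (2 matrices, per the file headers). The submitters' processing notes name Cell Ranger 3.1.0, the mm10 build and edgeR (gene annotation of the Cell Ranger reference: not given in the sources used here). The study converted gene symbols with an NCBI annotation, a step not repeated here. The filters on cells were those of the study, on genes, UMIs and mitochondrial share, whose upper limits also remove high-count doublets, and no doublet caller was run.

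From these counts, each cell was gated by marker UMIs per 10000 UMIs outside the 8 milk genes: at least 50 for basal, at least 50 or the valley between the library's modes for LP/alveolar, at least 30 for ML and at least 50 for other cell types. Cells passing more than 1 gate were left out. Counts were summed per library and class (classes of at least 20 cells), milk genes were left out of library sizes, and sums were scaled by TMM. The library, a pool of mice, was the replicate. Where nothing ties 2 libraries to separate mice, p-values measure only the spread between these libraries. All replicate pairs differed by more than sampling noise. The study lists no pregnancy or lactation sample as processed together with adult ones, so stage and capture cannot be told apart.

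Tests used edgeR 4.0.16 in R 4.3.3 (glmQLFit and glmQLFTest after filterByExpr), over the 9 libraries of the replicated stages for each class, or with the library as a block for lineages and for the difference between classes. P-values were adjusted by Benjamini-Hochberg over all genes tested, with a threshold of 0.05, and SE is the log2 change divided by the root of F. Printed levels use TMM factors over all classes, so ratios of levels can differ slightly from fitted changes. The code was checked on simulated counts with known changes. DESeq2 1.42.0, no TMM factor, no abundance filter, stricter gates, milk genes kept, no library block and leaving out each library were the alternatives. Python 3.11.15 summed the counts. Counts of 3' ends are not compared between genes. Intervals and limits cover counting error only.

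Named genes were 24 carriers of known role, the 5 largest called changes without overlap in each comparison, and low-count members as a group. Slc36a2, Slc7a10, Slc6a3 and Slc6a4 were named after their values were seen. Members and lists were chosen with earlier results of these data known.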

Additional observations from a re-analysis of the deposited data

Results flagged for a closer look

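The 6 values that follow for the difference between LP/alveolar and basal cells passed the test of that difference itself (change from adult to lactation, edgeR's quasi-likelihood test, 2 lactation and 3 adult libraries). On the log2 scale they were 9.34 for Slc38a3, 6.21 for Slc1a3, 4.45 for Slc7a5, 3.24 for Slc7a2, 2.40 for Slc7a6 and 1.83 for Slc38a10. All were positive.

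The 8 libraries outside the FVB/NJ series hold 4 member levels whose lower Poisson limit exceeded 5 times the highest FVB/NJ value for the same class. Only epithelial classes and levels from 20 or more UMIs were searched. How many of all genes pass this limit was not counted. Each comes from 1 library, so there is no replicate check, and strain, age and capture cannot be told apart. Slc38a4, a sodium-coupled neutral amino acid carrier of placenta and liver, was at 34.7 scaled CPM in basal cells of the E18.5 mammary rudiment (exact Poisson 95% interval 29.8 to 40.1, 181 UMIs) and at 54.8 at postnatal day 5 (52.1 to 57.7), against at most 2.11 in FVB/NJ basal cells. Only 751 of the kept E18.5 cells (11.7%) passed the basal gate of 50 marker UMIs per 10000. Their median was 70.8, against 184 to 449 in basal cells of the adult FVB/NJ libraries. Slc6a14 was at 3.59 in basal cells at postnatal day 5 (99 UMIs), against at most 0.378. Slc6a2, the noradrenaline carrier, was at 26.4 in basal cells before puberty (639 UMIs), against at most 2.96.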

How the results depend on the processing

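The called count moved by over 1.5 times in these cases. The share of all genes called was counted only for the main fit and for some DESeq2 comparisons. The other counts are therefore not set against all genes and show nothing particular to the members. Without an abundance filter it was 12 instead of 7 from adult to 12.5 days of pregnancy, 8 instead of 0 from 12.5 to 18.5 days, 10 instead of 1 from 18.5 days to lactation and 3 instead of 0 in basal cells. DESeq2 gave 8 from 12.5 to 18.5 days, 4 from 18.5 days to lactation and 2 in basal cells, and no TMM factor gave 3 from 18.5 days to lactation (1 higher, 2 lower). Without the library block, the adult comparisons gave 8 calls for ML, 11 for basal and 5 for LP/alveolar cells. Lactation against adult in LP/alveolar cells gave 17 to 21 calls under the settings other than leaving out a library. No TMM factor moved the median of all genes to -0.44 in that comparison (members 0.42).

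Leaving out 1 library gave 0 to 9 calls from adult to 12.5 days, 0 to 7 from 12.5 to 18.5 days, 0 to 7 from 18.5 days to lactation, 10 to 21 for lactation against adult in LP/alveolar cells, 0 to 1 in basal and 0 to 3 in ML cells. The ranges were 12 to 27, 5 to 13 and 12 to 22 for adult basal, LP/alveolar and ML cells, and 3 to 6 for the difference between classes. A group left with 1 library is assumed to vary like the others. The share of all genes called was not counted for any fit without a library.

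Of 75 called changes of named members, 32 kept their call under every alternative run. Over all their alternatives, 698 values kept the call, 105 lost it and 0 reversed. No paired analysis was possible because stages share no replicate numbers in the labels. Small lactation basal and ML sums (lowest 292349 UMIs) limit what those classes can show.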

Other observations

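Erythroid-led cells appeared in the prepuberty library (187 cells that passed the haemoglobin gate). Before TMM scaling they held 209 CPM of Slc43a1, 217 of the glutamine carrier Slc38a5 and 138 of the glycine carrier Slc6a9, from 332, 345 and 219 UMIs. The study's sort removed Ter119+ cells. Fibroblast-led cells of the same library held 4.50, 0 and 7.07. In the skin library at E18.5, 8623 fibroblast-led cells held 27.6 of Slc7a10, 27.2 of Slc38a4 and 37.4 of Slc1a3.

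The adult libraries of other strains are single. Slc1a5 in basal cells was at 78.3 scaled CPM in C57BL/6 and 6.39 in SWISS, beside 67.0 to 126 in FVB/NJ. Slc7a2 in ML cells was at 312 in C57BL/6 and 44.1 in SWISS, beside 110 to 156 in FVB/NJ. Slc7a5 in basal cells was at 139 in terminal end buds, 95.1 in ducts and 2.52 before puberty. These values have no test.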
